A study of Mus musculus with 10 samples.

Results

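The genes described here are 32 genes of sterol and fatty acid synthesis, out of 23337 gene symbols counted in each library. They were taken from a list of gene names that was chosen with earlier results of these data known. Shares of members set beside those of all genes therefore describe this list and are not an independent test. Every listed name was found in the data, with Msmo1 under its older symbol Sc4mol. All 32 were among the 12313 genes tested, and the lowest value of any of them in any library rested on 15 reads. By role, 6 act from HMG-CoA synthesis to farnesyl pyrophosphate, 11 act from squalene to the finished sterol ring, 5 control the SREBP transcription factors, 2 act in sterol transfer and in making acetoacetyl-CoA, and 8 make or modify fatty acids.

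RNA sequencing was done on 10 libraries of immortalised mouse embryonic fibroblasts, a dividing line of embryonic connective-tissue cells. Cultures carried the label Slfn2 WT or Slfn2 KO and grew in the same serum-containing medium. They were left untreated or were given mouse interferon-β (IFN-β, a type I interferon) at 5000 IU/ml for 6 h, giving 3 libraries per treatment under the WT label and 2 under the KO label. Each library label ends in a number, 1 to 3 for the WT-labelled groups and 1 or 2 for the KO-labelled groups, whose meaning is not given. The replicates are plated wells of these cells, and how many independently derived lines stand behind each genotype is not given in the sources used here, so each p-value measures the spread between these libraries only. The series asks how Slfn2, a Schlafen family gene, acts on interferon responses.

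The targeted gene did not settle the labels. Slfn2 had 18.7, 17.4 and 15.5 normalised reads (read counts scaled for library depth) in untreated WT-labelled libraries 1, 2 and 3, and 527, 449 and 573 with IFN-β. It had 46.1 and 34.9 untreated and 75.0 and 171 after IFN-β in KO-labelled libraries 1 and 2, so the untreated KO-labelled libraries held more Slfn2 reads than the untreated WT-labelled ones. On the log2 scale KO-labelled cells differed by 1.18 ± 0.36 untreated (SE, limma, Benjamini-Hochberg adjusted p = 0.091, or 0.039 and so higher with the library number as a block) and by −2.17 ± 0.36 with IFN-β (adjusted p = 0.0082). Reads over the whole gene do not show whether part of it is deleted, so genotypes are called WT-labelled and KO-labelled throughout. The treatment was visible in Ifit1, an interferon-induced gene, with 308 to 1236 normalised reads in untreated and 26350 to 26910 in treated WT-labelled libraries, and 23.1 and 114 against 19380 and 17760 in KO-labelled ones. Isg15, another such gene, rose by 5.09 ± 0.43 and 6.39 ± 0.52 on the log2 scale.

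Cells make cholesterol from acetyl-CoA through mevalonate, farnesyl pyrophosphate, squalene and lanosterol. SREBP proteins, encoded by Srebf1 and Srebf2, are held in the endoplasmic reticulum with their escort Scap by Insig proteins when sterol is plentiful. When sterol is scarce they are released, cut in the Golgi, and switch on genes of sterol and fatty acid synthesis, often together with the factors NF-Y and Sp1. In macrophages, type I interferon is known to lower sterol synthesis, and the oxysterol made by the interferon-induced enzyme Ch25h is known to hold SREBP back.

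Sequences upstream of a RefSeq start of 4 members are shown because the differences between library numbers described next touch known SREBP target genes. They are the 3 members with the largest difference between libraries numbered 2 and 1 for which a promoter sequence was at hand, and Scap, the member whose difference was closest to 0. Each runs 5′ to 3′ on the gene's strand, from 240 to 31 bases before the RefSeq transcript start (GRCm38.p6). Capitals mark the sterol regulatory element core TCACNCCAC and the NF-Y box CCAAT, on either strand, so that an NF-Y box on the other strand reads ATTGG. The windows are chr13:119690111-119690320 (plus strand) for Hmgcs1, chr19:6067881-6068090 (minus strand) for Tm7sf2, chr5:28071172-28071381 (plus strand) for Insig1 and chr9:110333048-110333257 (plus strand) for Scap, the last for the first of its 2 RefSeq starts.
Hmgcs1: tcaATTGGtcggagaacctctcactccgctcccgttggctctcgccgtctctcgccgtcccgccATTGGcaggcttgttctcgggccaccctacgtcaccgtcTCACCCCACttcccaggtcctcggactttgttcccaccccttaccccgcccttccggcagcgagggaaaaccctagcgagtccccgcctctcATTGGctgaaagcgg
Tm7sf2: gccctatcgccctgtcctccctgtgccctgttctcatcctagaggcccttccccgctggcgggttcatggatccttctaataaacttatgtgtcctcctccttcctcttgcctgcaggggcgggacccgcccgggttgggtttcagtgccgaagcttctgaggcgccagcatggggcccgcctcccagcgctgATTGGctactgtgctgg
Insig1: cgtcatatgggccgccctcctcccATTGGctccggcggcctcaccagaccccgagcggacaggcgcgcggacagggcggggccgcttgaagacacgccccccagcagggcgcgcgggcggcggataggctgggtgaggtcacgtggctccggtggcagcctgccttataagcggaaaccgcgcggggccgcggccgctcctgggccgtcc
Scap: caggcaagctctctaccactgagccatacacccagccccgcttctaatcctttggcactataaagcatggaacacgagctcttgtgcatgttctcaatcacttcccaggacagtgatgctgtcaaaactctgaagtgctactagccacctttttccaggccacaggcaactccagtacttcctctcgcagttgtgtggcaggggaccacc

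In the Hmgcs1 window the sterol element lay at positions −137 to −129 from the start, with 3 NF-Y boxes around it. The Tm7sf2 and Insig1 windows held 1 NF-Y box each and no match to the sterol element core, and the Scap window held neither. By GENCODE M21 the Tm7sf2 window lies inside the gene (6062821 to 6068373), so the bases before the start annotated there were not shown. The Insig1 window runs slightly past its annotated start (28071363). Promoters of 300 bases around the start were matched for 25 of the 32 members. An NF-Y box was found in 20 of the 25 (80%), against 41.1% of 27025 genes with a promoter of that length. The Sp1-type GC box GGGCGG was found in 21 (84%, against 38.2%), and the E-box CACGTG in 5 (20%, against 8.09%). The core TCACNCCAC was found in Hmgcs1 alone (4%, against 1.44%). No 2 matches overlapped in the promoters of the 4 genes printed. The shares set beside the members are over all genes with such a promoter, whether or not they were expressed in these cells. All 32 members were among the 12313 genes tested, and the shares among those genes were not counted. These matches are a description of letters in 1 window per start, and the other sterol element variants were not searched for.

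Most of the 32 genes were higher in libraries numbered 2 than in libraries numbered 1, in both labelled genotypes and with or without IFN-β. After the group means were accounted for, 27 of 32 were higher and 0 lower at an adjusted p under 0.05 (limma), where 25.3% of all genes tested were higher and 23.3% were lower. At an unadjusted p under 0.05 there were 28, all higher. The members' median log2 difference was 0.78 and that of all genes tested was 0.02. In 29 of 32 the library numbered 2 was above the library numbered 1 in all 4 groups, a pattern of 30.1% of all genes, and in 0 of 32 it was below in all 4, a pattern of 27.9% of all genes. In bulk RNA, fewer cells of a type and less RNA per cell cannot be told apart.

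**Figure D1:**
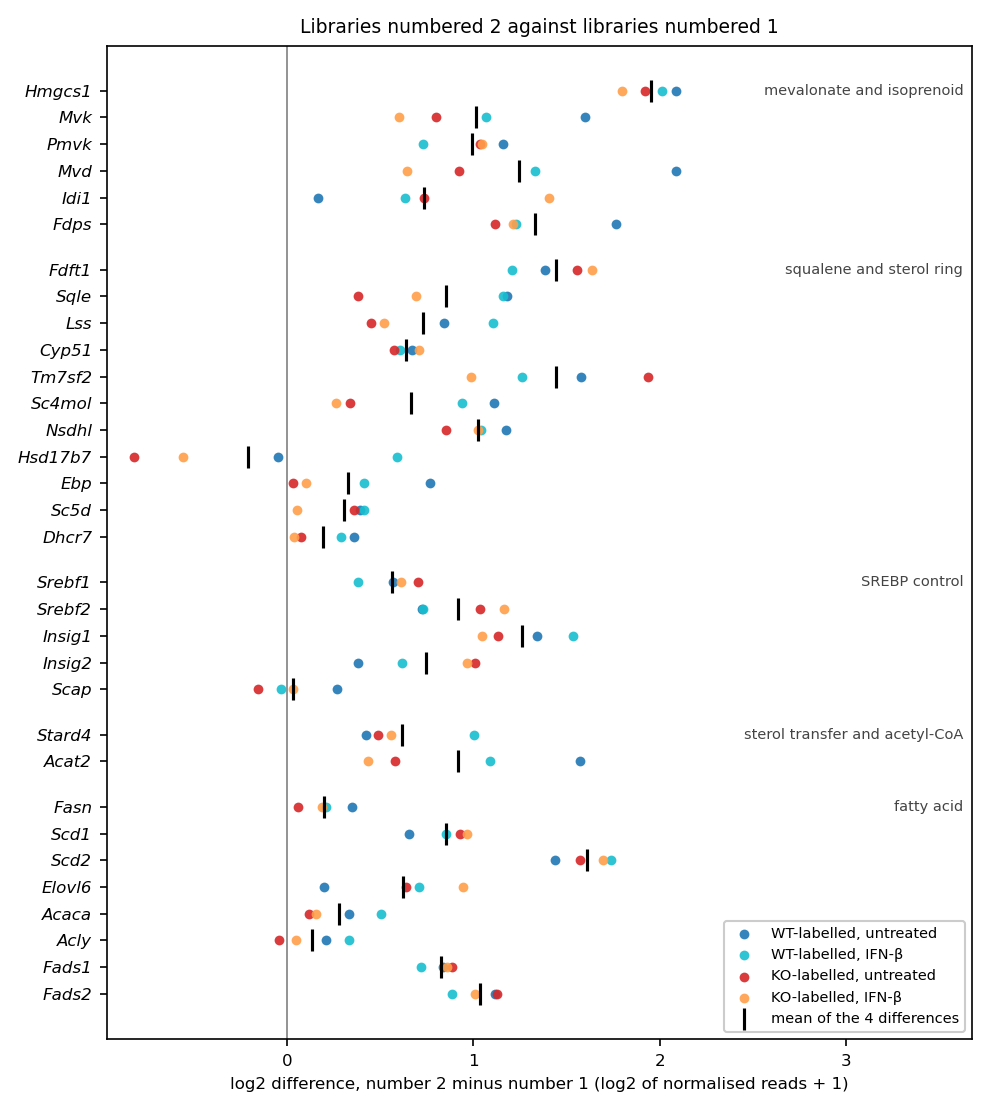
Log2 difference between the library numbered 2 and the library numbered 1 for each of the 32 genes (rows, by role), 1 point per group and a black bar at the mean of the 4 differences. Hmgcs1 and Scd2 have the largest means, and Hsd17b7 has points on both sides of 0.

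The genes from HMG-CoA to farnesyl pyrophosphate were higher in libraries numbered 2 in 6 of 6 cases. Hmgcs1, the HMG-CoA synthase (chromosome 13, 119690379 to 119708260, plus strand, GENCODE M21 on GRCm38), had 1045, 4448 and 4185 normalised reads in untreated WT-labelled libraries 1, 2 and 3. With IFN-β the WT-labelled values were 1035, 4182 and 3334. KO-labelled libraries 1 and 2 held 664 and 2513 untreated, then 636 and 2213 after IFN-β. All 4 libraries numbered 2 were thus above all 4 numbered 1, and the ratio within a group was 3.48 to 4.25. The fitted log2 difference was 1.95 ± 0.08 (SE, adjusted p = 1.5e-05).

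Fdps, the farnesyl pyrophosphate synthase, had 469, 1594 and 1190 normalised reads in untreated WT-labelled libraries and 529, 1240 and 1257 after IFN-β. Its KO-labelled values were 516 and 1117 untreated, then 509 and 1179 after IFN-β. The libraries numbered 1 were close to each other, and the difference was 1.33 ± 0.12 (adjusted p = 0.00015). Mvd, which decarboxylates mevalonate pyrophosphate, ranged from 264 to 280 in the libraries numbered 1 and from 423 to 1193 in those numbered 2 (1.25 ± 0.20, adjusted p = 0.0018). Its log2 difference within a group ran from 0.64 to 2.09, so the spread between groups was wide. The mevalonate kinase Mvk differed by 1.02 ± 0.15 and the next kinase Pmvk by 0.99 ± 0.10. Idi1, the isomerase that makes the second isoprenoid unit, was low, at 16.9 to 93.9 normalised reads, and differed by 0.74 ± 0.24 (adjusted p = 0.032). Leaving out WT-labelled IFN-β library 2 or any of the 4 KO-labelled libraries ended that call (adjusted p up to 0.14).

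Of the 11 genes from squalene to the sterol ring, 8 were higher in libraries numbered 2 and 3 did not pass the test. Fdft1, the squalene synthase (chromosome 14, 63145150 to 63179578, minus strand), had 643, 1683 and 1545 normalised reads in untreated WT-labelled libraries and 691, 1598 and 1518 after IFN-β. Its KO-labelled values were 321 and 944 untreated, then 332 and 1032 after IFN-β. The numbers did not overlap, and the difference was 1.45 ± 0.09 (adjusted p = 5.2e-05). Tm7sf2, a sterol reductase with few reads (15.7 to 37.3 in libraries numbered 1 and 49.2 to 113 in those numbered 2), differed by 1.44 ± 0.20. Nsdhl, a dehydrogenase that helps to remove methyl groups from the ring, differed by 1.02 ± 0.09, the squalene epoxidase Sqle by 0.85 ± 0.13, and the lanosterol synthase Lss by 0.73 ± 0.12. Cyp51, the lanosterol demethylase, differed by 0.64 ± 0.07, with all 4 groups between 0.57 and 0.71. The sterol methyl oxidase Sc4mol differed by 0.66 ± 0.14 and the desaturase Sc5d by 0.31 ± 0.10 (adjusted p = 0.033). The Sc5d call ended when WT-labelled untreated library 1, WT-labelled IFN-β library 1 or 2, or either untreated KO-labelled library was left out (adjusted p up to 0.11).

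The 3 ring genes that did not pass were the late enzymes Dhcr7 and Ebp and the reductase Hsd17b7. Dhcr7, which makes cholesterol from its last precursor in one branch of the pathway, differed by 0.19 ± 0.10 (adjusted p = 0.15), although the library numbered 2 was the higher one in all 4 groups. Ebp, the sterol isomerase, differed by 0.33 ± 0.13 (adjusted p = 0.070). Hsd17b7 had 284, 275 and 481 normalised reads in untreated WT-labelled libraries and 275, 415 and 401 after IFN-β. In KO-labelled libraries it had 220 and 124 untreated, then 204 and 139 after IFN-β, so the library numbered 2 was the lower one in both KO-labelled groups. Its difference over all groups was −0.21 ± 0.22 (adjusted p = 0.46). It passed as lower in KO-labelled libraries fitted alone (−0.69, adjusted p = 0.019) and without WT-labelled IFN-β library 2 (adjusted p = 0.047).

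Among the genes that control SREBP, 4 of 5 were higher in libraries numbered 2. Insig1, the endoplasmic reticulum anchor that is itself an SREBP target (chromosome 5, 28071363 to 28078662, plus strand), had 529, 1342 and 1401 normalised reads in untreated WT-labelled libraries and 456, 1324 and 1089 after IFN-β. The KO-labelled values were 365 and 800 untreated, then 317 and 655 after IFN-β. All libraries numbered 2 were above all numbered 1 (1.26 ± 0.10, adjusted p = 0.00013). Srebf2, the factor tied mainly to sterol genes (chromosome 15, 82147181 to 82205379, plus strand), had 3626, 5998 and 5838 untreated and 3439, 5711 and 5664 after IFN-β in WT-labelled cells. It had 2144 and 4402 untreated, then 1813 and 4071 after IFN-β in KO-labelled cells, and differed by 0.92 ± 0.09 (adjusted p = 0.00023). Insig2, the second anchor, differed by 0.74 ± 0.12, and Srebf1, tied mainly to fatty acid genes, by 0.57 ± 0.08. Scap, the escort protein, had 1777, 2142 and 1653 untreated and 1823, 1788 and 1706 after IFN-β in WT-labelled cells, and 1384 and 1246 untreated, then 1279 and 1310 after IFN-β in KO-labelled cells. The numbers overlapped for Scap (0.03 ± 0.09, adjusted p = 0.78).

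**Figure D2:**
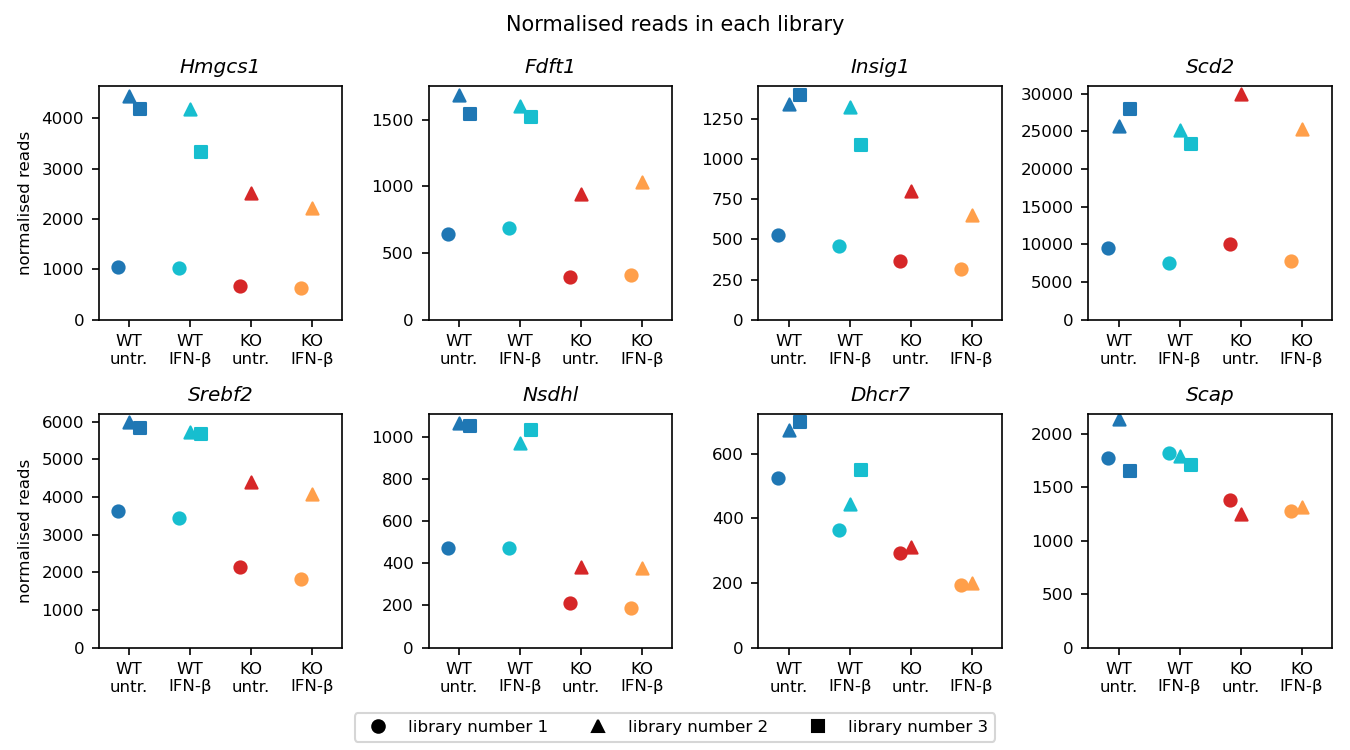
Normalised reads (linear axes from 0) of 8 genes in each of the 10 libraries, by group, with the library number given by the symbol. For Hmgcs1, Fdft1, Insig1, Scd2 and Srebf2 the libraries numbered 2 (triangles) lie above those numbered 1 (circles) in every group, while those of Scap overlap.

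Of the 8 fatty acid genes, 7 were higher in libraries numbered 2. Scd2, a stearoyl-CoA desaturase that puts a double bond into saturated fatty acids (chromosome 19, 44293674 to 44306864, plus strand), had 9497, 25680 and 27962 normalised reads in untreated WT-labelled libraries and 7548, 25200 and 23328 after IFN-β. Its KO-labelled values were 10080 and 29913 untreated, then 7832 and 25376 after IFN-β. All libraries numbered 2 were above all numbered 1 (1.61 ± 0.08, adjusted p = 1.6e-05). The related desaturase Scd1 differed by 0.85 ± 0.08. The desaturases of polyunsaturated fatty acids, Fads2 and Fads1, differed by 1.04 ± 0.07 and 0.83 ± 0.07, and the elongase Elovl6 by 0.62 ± 0.12.

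The enzymes that supply and build the saturated chain differed less. Fasn, the fatty acid synthase, differed by 0.20 ± 0.07 (adjusted p = 0.043), and Acaca, the acetyl-CoA carboxylase, by 0.28 ± 0.09 (adjusted p = 0.029). Leaving out any of 9 libraries, the exception being WT-labelled untreated 2, ended the Fasn call (adjusted p up to 0.15). For Acaca 7 libraries did so, the exceptions being WT-labelled untreated 2 and the untreated KO-labelled libraries (up to 0.11). Acly, which makes cytosolic acetyl-CoA from citrate, differed by 0.14 ± 0.08 and did not pass (adjusted p = 0.18). Of the 2 remaining members, the sterol carrier Stard4 differed by 0.62 ± 0.13 and Acat2, the cytosolic thiolase that makes acetoacetyl-CoA, by 0.92 ± 0.17.

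Of the 27 calls, 23 were kept without each library in turn. The number of members called was 14 when the untreated libraries were fitted alone and 16 when the IFN-β libraries were, all higher, where 5.48% and 4.3% of all genes were higher in the same fits. Libraries numbered 1 had a read in 13658 to 14066 genes and those numbered 2 in 14082 to 14311, and their totals overlapped (13814658 to 15265097 reads against 14758646 to 16329729). All 8 fibroblast markers were present, and their summed level was 213431 to 266641 normalised reads in libraries numbered 1, 240403 to 375450 in those numbered 2 and 170292 to 172653 in those numbered 3. By the same test, Pdgfra, Pdgfrb, Col1a2, S100a4 and Vim were higher in libraries numbered 2 and Thy1 was lower. The 11 adipocyte markers summed to 796 to 1846, 1144 to 2184 and 1291 to 2526 in numbers 1, 2 and 3. Most of each sum came from Lpl and Pparg. Lpl had 432 to 1174 normalised reads in untreated libraries and 1462 to 2453 with IFN-β, and Pparg had 54.0 to 485 over all libraries. Plin4 and Lpl of that list were higher in libraries numbered 2. Adipoq and Cfd, which define adipocytes, held 0 reads in all 10 libraries. Over all libraries the macrophage markers summed to 53.0 to 97.0 normalised reads, the endothelial to 2.90 to 20.2, the epithelial to 1.00 to 5.16, the hepatocyte to 0 to 26.8 and the neural to 477 to 1318. Most of the neural sum was Tubb3, at 462 to 1285. The part of the gene count or of the markers in the differences was not tested.

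The third library number exists in WT-labelled cells only. Against libraries numbered 1, those numbered 3 were higher for 25 of 32 genes and lower for 0, where 11.9% of all genes were higher (28 members at an unadjusted p under 0.05, all higher). In 31 of 32 the library numbered 3 was above number 1 both with and without IFN-β, a pattern of 42% of all genes, and the exception was Scap. Both this comparison and that of numbers 2 and 1 use the WT-labelled libraries numbered 1, so the direction of one is not independent of the other. Hmgcs1 differed by 1.80 ± 0.11, Scd2 by 1.60 ± 0.10, Fdft1 by 1.27 ± 0.12, Insig1 by 1.24 ± 0.14, Nsdhl by 1.10 ± 0.12 and Fads2 by 0.96 ± 0.10, and these 6 kept the call without each library in turn. The other 19 calls were lost without 1 or more libraries. Leaving out WT-labelled IFN-β library 1 gave a count of 16, all higher, where 1038 of all 12313 genes were higher. Leaving out either library numbered 3 leaves 1 of that number, and fewer members then passed. The median of the 32 members was 0.82 without the untreated one and 0.83 without the IFN-β one, against 0.81 with all libraries. Ebp (0.41 ± 0.18), Hsd17b7 (0.41 ± 0.29), Srebf1 (0.27 ± 0.10), Fasn (0.26 ± 0.09), Acly (0.24 ± 0.10), Acaca (0.19 ± 0.12) and Scap (−0.14 ± 0.11) did not pass. Of the fibroblast markers, Thy1 (−1.73 ± 0.30), Col1a1 (−0.96 ± 0.14) and Col3a1 (−0.58 ± 0.16) were lower in libraries numbered 3, and S100a4 (1.73 ± 0.39), Pdgfrb (1.02 ± 0.25) and Vim (0.51 ± 0.12) were higher, as was Lpl of the adipocyte list (0.57 ± 0.12). The part of these markers in the result was not tested.

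Between libraries numbered 3 and 2, 0 members passed the test (limma), where 2.08% of all genes did. At an unadjusted p under 0.05 there were 3. By edgeR 0 members passed and by DESeq2 1 did, where 268 and 778 of all 12313 genes passed. Without WT-labelled IFN-β library 2, limma called 3 members and 740 of all genes. The members' differences ran from −0.40 for Fads1 (± 0.09, adjusted p = 0.056) to 0.62 for Hsd17b7 (± 0.29, adjusted p = 0.24). A p that misses the threshold does not show that the numbers were alike.

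The difference between numbers 2 and 1 was smaller in KO-labelled than in WT-labelled cells for 3 members, where 2.01% of all genes had a lower difference in KO-labelled cells. Acat2 had log2 differences of 1.57 untreated and 1.09 after IFN-β in WT-labelled cells, and of 0.58 and 0.44 in KO-labelled cells (KO minus WT −0.82 ± 0.18, adjusted p = 0.048). Sc4mol had 1.11 and 0.94 against 0.34 and 0.26 (−0.72 ± 0.12, adjusted p = 0.019). Sqle had 1.18 and 1.16 against 0.38 and 0.69 (−0.63 ± 0.14, adjusted p = 0.045). In each of these the direction was the same in all 4 groups and only the size differed. Leaving out any of 8 libraries ended all 3 calls (adjusted p up to 0.37). The exceptions were the WT-labelled libraries numbered 2. Without the untreated one 9 members passed, 1 with a higher and 8 with a lower difference in KO-labelled cells. Of all 12313 genes, 649 were higher and 726 lower in that fit. Without the IFN-β one 13 members passed, 4 higher and 9 lower, where 1894 of all genes were higher and 1719 lower. With libraries numbered 1 and 2 alone 0 members passed. Mvd (−0.93 ± 0.25, adjusted p = 0.088) and Hsd17b7 (−0.96 ± 0.29, adjusted p = 0.11) had larger differences that did not pass. Between treatments, 0 members differed in this way by limma, edgeR or DESeq2 (1 at an unadjusted p under 0.05 by limma). Of all genes 0% did by limma or edgeR, and 1 gene did by DESeq2.

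**Figure D3:**
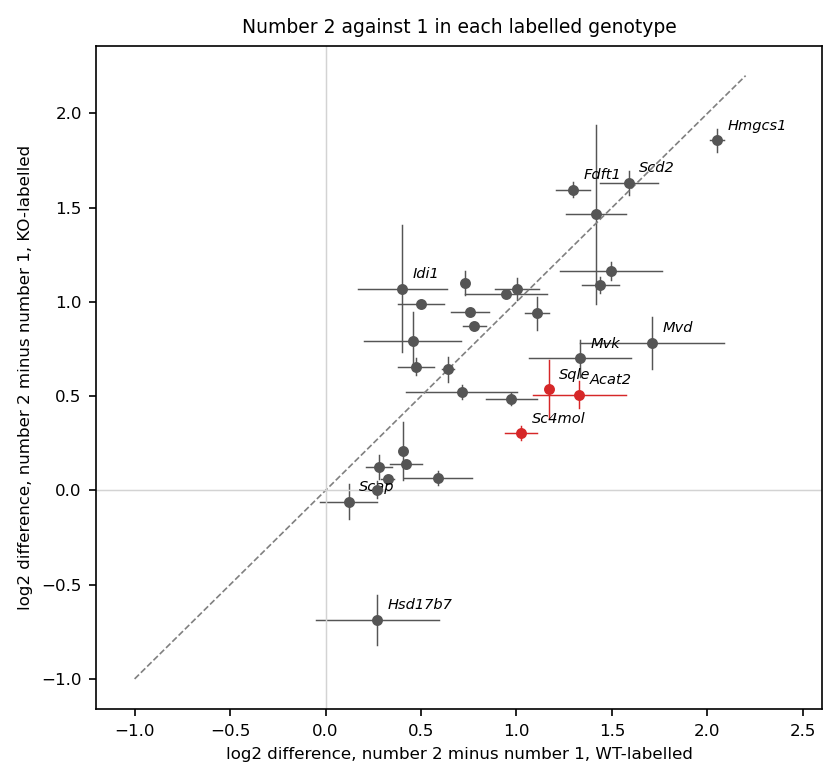
Log2 difference of number 2 against number 1 in WT-labelled (horizontal) and KO-labelled cells (vertical), each point the mean of the untreated and IFN-β differences and each line their range, with equality dashed. Acat2, Sc4mol and Sqle (red) lie below the dashed line and above 0.

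Other genes of these pathways, from lists that exclude the 32 members, passed in both directions between numbers 2 and 1. Over all genes tested, 25.3% were higher and 23.3% lower in libraries numbered 2. Of 16 further sterol pathway genes tested, 5 were higher and 6 lower in libraries numbered 2, with a median of 0.07. The lower ones included Tmem97, a sterol-responsive membrane protein (−0.70 ± 0.12), and Por, the reductase that serves Cyp51 and Sqle (−0.53 ± 0.07). Of 13 further SREBP control genes 2 were higher and 1 lower, and Mylip, the ligase that degrades lipoprotein receptors, was among the higher ones (0.61 ± 0.13). Of 22 further fatty acid genes 9 were higher and 5 lower. Among them Lpin1, a phosphatidate phosphatase, differed by 2.21 ± 0.26, and Acss2, an acetyl-CoA synthetase, by 1.38 ± 0.18, while the elongase Elovl3 was lower by limma (−1.68 ± 0.35). Of 15 genes of oxysterol response, efflux and storage, 5 were higher and 2 lower. The cholesterol exporter Abca1 had 7.34 to 70.0 normalised reads in libraries numbered 1 and 48.3 to 237 in those numbered 2, which overlap (1.90 ± 0.25), whereas Soat1, which esterifies cholesterol for storage, was lower (−1.24 ± 0.10).

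The comparison of KO-labelled with WT-labelled cells asks what differs with the Slfn2 label. Without regard to number, 2 of 32 members were lower and 0 higher in untreated KO-labelled cells, where 3.23% of all genes were lower. With IFN-β 1 was lower and 0 higher, where 3.64% of all genes were lower. The members' medians were −0.60 and −0.59, and those of all genes were 0.00 in both. The untreated median was −0.29 without KO-labelled untreated library 1 and −0.90 without library 2. Under IFN-β it was −0.24 with KO-labelled library 1 omitted and −0.86 with library 2 omitted. Those fits ignore the number, and each omission leaves KO-labelled libraries of a single number in that treatment. With the library number as a block, the medians over all libraries were −0.56 untreated and −0.52 with IFN-β. The same omissions of library 1 and library 2 then gave −0.63 and −0.40 untreated, and −0.56 and −0.39 with IFN-β.

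Dhcr7 (chromosome 7, 143823145 to 143848410, plus strand) passed in both treatments. It had 524, 673 and 699 normalised reads in untreated WT-labelled libraries and 365, 446 and 549 with IFN-β, against 294 and 310 untreated, then 194 and 200 after IFN-β in KO-labelled cells. Within a treatment the genotypes did not overlap (untreated −1.05 ± 0.22, adjusted p = 0.022, and with IFN-β −1.18 ± 0.22, adjusted p = 0.013). Each call was lost without the WT-labelled library 2 or 3 or either KO-labelled library of its own treatment (adjusted p up to 0.11 untreated and 0.084 with IFN-β). Fasn (chromosome 11, 120805846 to 120824547, minus strand) had 12610, 16040 and 15796 in untreated WT-labelled libraries and 8684 and 9070 in untreated KO-labelled ones (−0.73 ± 0.16, adjusted p = 0.029). With IFN-β it had 10739, 12419 and 12898 against 7275 and 8279 (−0.63 ± 0.16, adjusted p = 0.051). Leaving out WT-labelled library 2 or 3 of either treatment, or either untreated KO-labelled library, ended the untreated Fasn call (adjusted p up to 0.13).

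With the library number as a block, many more members passed. The numbers paired the libraries in the data, and with the block 15 members were lower and 3 higher in untreated KO-labelled cells, where 13.1% of all genes were lower and 13.5% higher. With IFN-β 14 were lower and 0 higher, where 13.3% of all genes were lower. The untreated count was 11, all lower, without WT-labelled untreated library 3, where 1139 of all 12313 genes were lower. The IFN-β count was 11, all lower, without WT-labelled IFN-β library 2, where 1047 of all genes were lower. Counts were lower still without KO-labelled library 2 of the treatment, which leaves 1 KO-labelled library there. By role, the lower ones untreated were 1 of 6 from HMG-CoA to farnesyl pyrophosphate, 6 of 11 from squalene to the ring, 3 of 5 of SREBP control, 1 of 2 of sterol transfer and acetoacetyl-CoA, and 4 of 8 fatty acid genes. Counting pairs of the same number and treatment, 21 of 32 members were lower in KO-labelled cells in all 4 pairs, a pattern of 27.5% of all genes. The 5 that were higher in all 4 pairs (28.2% of all genes) were Pmvk, Srebf1, Insig2, Scd1 and Scd2.

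**Figure D4:**
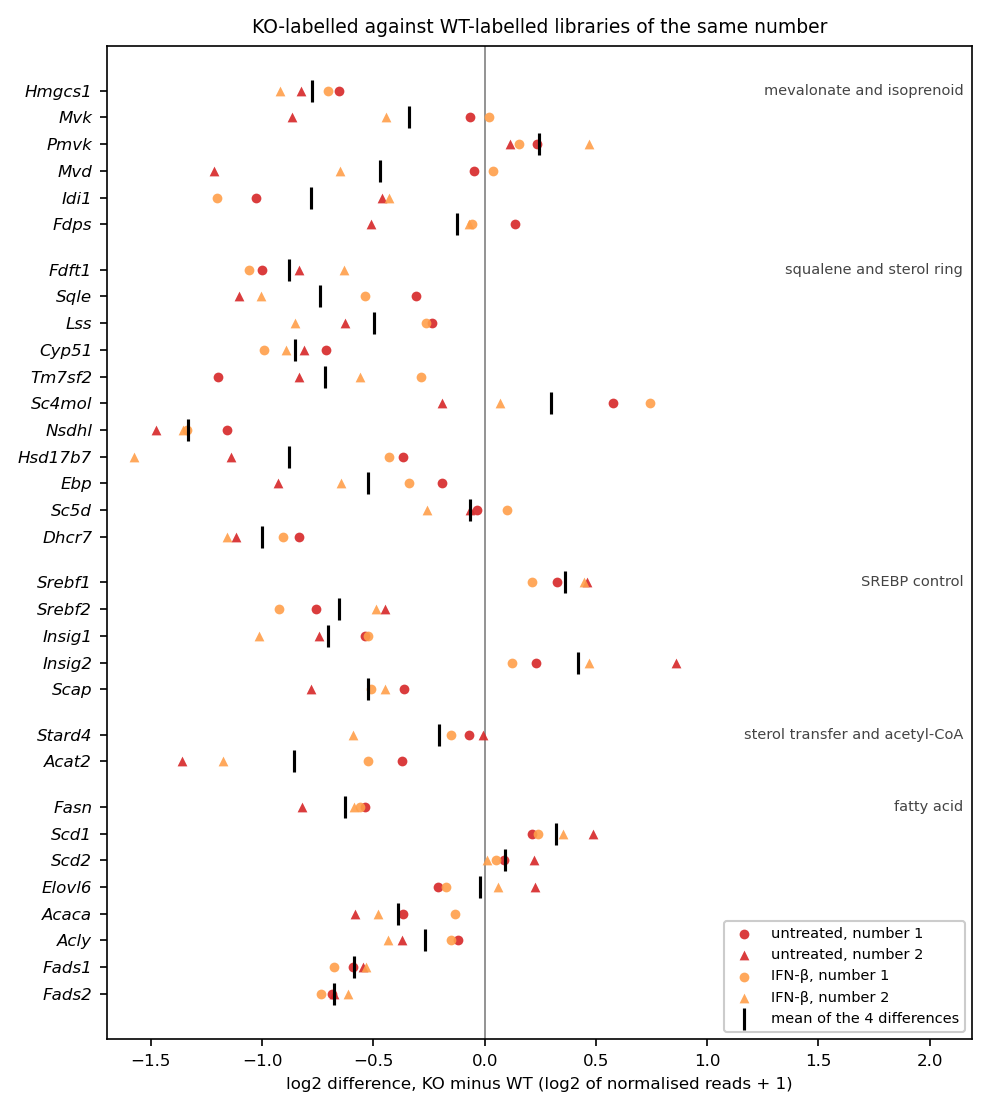
Log2 difference between KO-labelled and WT-labelled libraries of the same number and treatment for each of the 32 genes (rows, by role), 1 point per pair and a black bar at the mean of the 4 pairs. All 4 points of Nsdhl lie below −1, and those of Srebf1, Insig2, Scd1, Scd2 and Pmvk lie above 0.

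Nsdhl (chromosome X, 72918557 to 72958514, plus strand) had the largest difference. It had 473, 1068 and 1056 normalised reads in untreated WT-labelled libraries and 472, 973 and 1036 after IFN-β. KO-labelled libraries 1 and 2 had 212 and 384 untreated, then 186 and 379 after IFN-β. Every KO-labelled library was below every WT-labelled one, by 1.31 ± 0.12 untreated (adjusted p = 0.00021 with the block, 0.12 without) and by 1.36 ± 0.12 with IFN-β (0.00016 and 0.11).

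Further members lower in KO-labelled cells with the block, in both treatments, included Dhcr7 (−0.94 ± 0.14 untreated and −1.06 ± 0.14 with IFN-β) and Cyp51 (−0.80 ± 0.09 and −0.91 ± 0.09). Fdft1 (−0.92 ± 0.12 and −0.84 ± 0.12), Hmgcs1 (−0.79 ± 0.11 and −0.76 ± 0.11), Fads2 (−0.69 ± 0.10 and −0.67 ± 0.10) and Fads1 (−0.57 ± 0.09 and −0.61 ± 0.09) passed too. These 6 and Nsdhl kept the call without each library in turn in both treatments, and Fasn did so untreated (−0.68 ± 0.10). With IFN-β Fasn (−0.57 ± 0.10) failed the test once KO-labelled library 2 of that treatment was omitted (adjusted p = 0.051).

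The regulators Srebf2 (−0.60 ± 0.12 and −0.71 ± 0.12), Insig1 (−0.68 ± 0.14 and −0.73 ± 0.14) and Scap (−0.54 ± 0.12 and −0.51 ± 0.12) were lower in both treatments with the block. So were Sqle (−0.71 ± 0.18 and −0.76 ± 0.18) and Acat2 (−0.85 ± 0.23 and −0.86 ± 0.23). Each of these 5 lost the call in both treatments when some single library of that treatment was left out. For Srebf2 it was KO-labelled library 1 and for Insig1 KO-labelled library 2 (adjusted p up to 0.074 and 0.10). For Scap it was KO-labelled library 2 untreated, and with IFN-β WT-labelled library 1 or either KO-labelled one (up to 0.13). For Sqle it was WT-labelled library 2 or 3 or KO-labelled library 2 untreated, and with IFN-β WT-labelled library 2 or either KO-labelled one (up to 0.20). The Acat2 call ended without any of 5 libraries in each treatment, KO-labelled library 2 among them (up to 0.24).

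Tm7sf2 and Acaca passed as lower untreated (−0.99 ± 0.27 and −0.48 ± 0.12), and had −0.45 ± 0.27 and −0.30 ± 0.12 with IFN-β (adjusted p = 0.25 and 0.094). Lss passed with IFN-β (−0.54 ± 0.16) and had −0.45 ± 0.16 untreated (adjusted p = 0.064). Leaving out any of 3 to 5 libraries ended these calls (adjusted p up to 0.20, 0.19 and 0.28). Whether those differences changed with treatment is the interaction, given last.

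The 3 members higher in untreated KO-labelled cells with the block were Srebf1, Insig2 and Scd1. Srebf1 had 1514, 2243 and 1788 normalised reads in untreated WT-labelled libraries and 1895 and 3086 in KO-labelled ones (0.40 ± 0.10, adjusted p = 0.023). Insig2 had 257, 335 and 495 against 302 and 610 (0.53 ± 0.17, adjusted p = 0.050, under the threshold before rounding). Scd1 had 1678, 2647 and 2980 against 1945 and 3709 (0.33 ± 0.10, adjusted p = 0.044). In each the genotypes overlapped unless libraries of the same number were set side by side. The Srebf1 call ended without WT-labelled untreated library 1 or 3, WT-labelled IFN-β library 3 or either untreated KO-labelled library (adjusted p up to 0.22). Those of Insig2 and Scd1 ended without any library other than WT-labelled untreated 1 (up to 0.36 and 0.27). With libraries numbered 1 and 2 alone and the block, 12 members were lower and 0 higher in each treatment, where 9.27% of all genes were lower untreated and 9.02% with IFN-β.

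Of the other pathway genes, Ch25h, which makes an oxysterol that restrains SREBP, was lower in KO-labelled cells. It had 27.4, 148 and 167 normalised reads in untreated WT-labelled libraries and 135, 197 and 295 after IFN-β. Its KO-labelled values were 0 and 0.94 untreated, which is 1 read in all, and 11.6 and 5.47 with IFN-β (adjusted p = 0.0024 untreated and 0.010 with IFN-β). Lipa, the lysosomal lipase (−1.55 ± 0.33), and Npc2, which carries cholesterol in lysosomes (−1.23 ± 0.27), were lower in untreated KO-labelled cells. Of the 22 further fatty acid genes, the elongase Elovl7 (3.59 ± 0.55 untreated and 4.35 ± 0.55 with IFN-β) and the reductase Tecr (1.17 ± 0.29 and 1.30 ± 0.29) were higher in both treatments. Of 16 further sterol genes 0 passed in either treatment without the block. With it 1 was higher and 5 lower untreated, Por by −0.69 ± 0.10 among them, where 13.5% of all genes were higher and 13.1% lower. The fibroblast markers summed to 170292 to 258135 in WT-labelled and 233914 to 375450 in KO-labelled libraries, which overlap. Without the block, none of the 8 fibroblast markers passed in either treatment, while some markers of other cell types did. Pparg of the adipocyte list had 54.0 to 92.2 normalised reads in WT-labelled and 338 to 485 in KO-labelled libraries, and was higher in both treatments (2.25 ± 0.28 untreated and 2.54 ± 0.28 with IFN-β). Lpl of that list was lower untreated (−1.16 ± 0.24), and Adipoq and Cfd were at 0 throughout. Afp of the hepatocyte list had 14.4 to 26.8 in WT-labelled and 0 to 1.88 in KO-labelled libraries and was lower in both treatments, while Alb, Ttr and Serpina1a were at 0. The part of these markers in the result was not tested.

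The comparison of IFN-β with untreated cells asks which genes interferon moves. Of the 32 members, 0 passed in WT-labelled and 0 in KO-labelled cells, with or without the block and by edgeR and DESeq2 too. Without the block 2.21% and 1.84% of all genes passed, and with it 4.95% and 3.48%. At an unadjusted p under 0.05 there was 1 member in each genotype without the block, and 4 and 2 with it. With the block, leaving out WT-labelled untreated library 2 let 1 member pass in KO-labelled cells, Dhcr7, which was lower (adjusted p = 0.030). In that fit 504 of all 12313 genes were higher and 47 lower.

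The differences were small. Without the block, and for 1 omission with it, the side of 0 on which most of them fell depended on single libraries. Once a library is left out, fits without the block compare unequal sets of library numbers. With all libraries they were negative in 24 of 32 members in WT-labelled and 23 of 32 in KO-labelled cells, with medians of −0.10 and −0.12, against −0.03 over all genes in both. In WT-labelled cells 27 of 32 were positive without IFN-β library 1 (median 0.18), 22 without untreated library 2 (0.04) and 18 without untreated library 3 (0.03). In KO-labelled cells 25 were positive both without untreated library 2 (0.30) and without IFN-β library 1 (0.24). With the block, 17 were positive in KO-labelled cells without untreated library 1 (0.01), and no other omission gave more than 12 in either genotype. In 13 of 32 the IFN-β library was below its untreated partner in all 5 pairs of the same number, a pattern of 16.9% of all genes. In 1 of 32, Cyp51, it was above in all 5, a pattern of 14.4% of all genes. The 13 were Hmgcs1, Mvk, Pmvk, Mvd, Sqle, Nsdhl, Dhcr7, Srebf2, Insig1, Acat2, Fasn, Scd2 and Fads1.

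**Figure D5:**
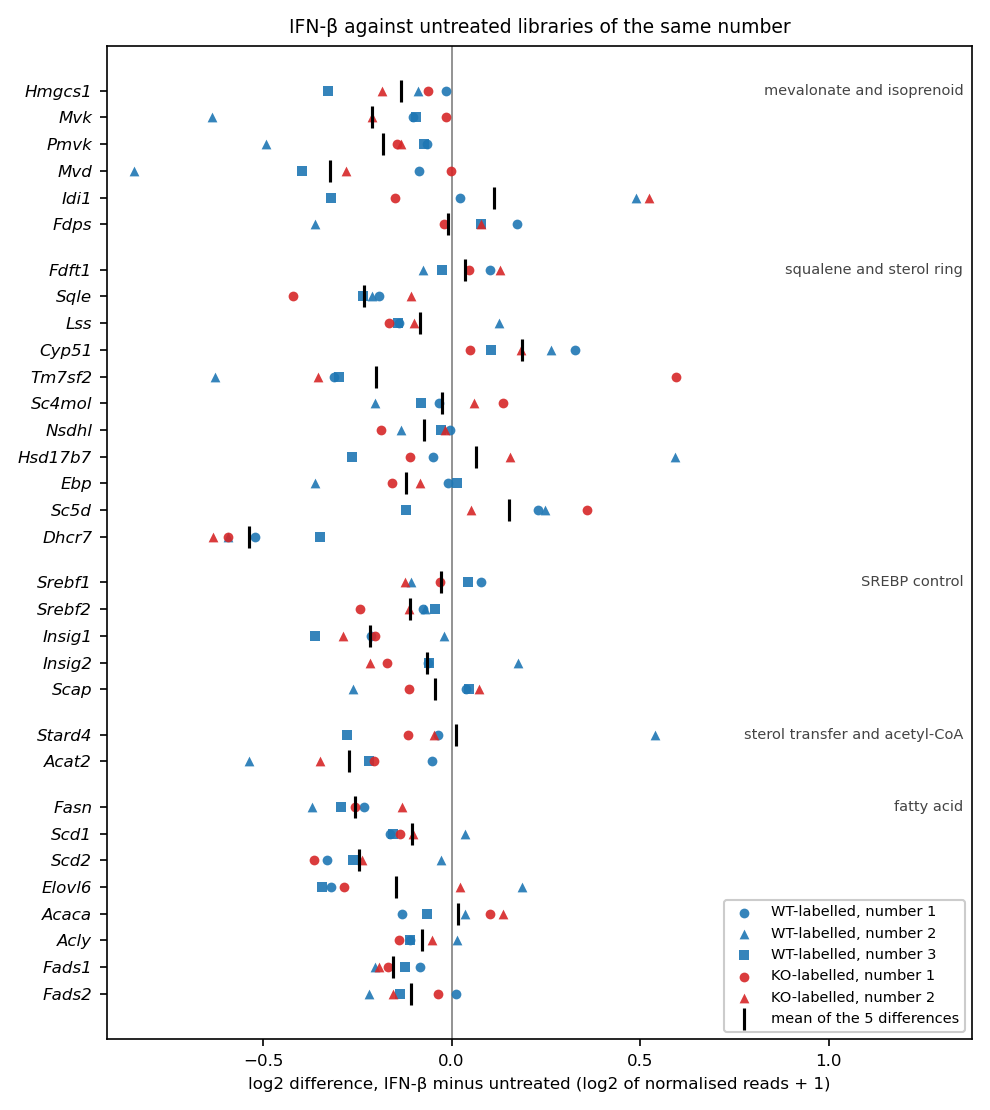
Log2 difference between the IFN-β library and the untreated library of the same number and labelled genotype for each of the 32 genes (rows, by role), 1 point per pair and a black bar at the mean of the 5 pairs. The 5 points of Dhcr7 lie between −0.63 and −0.35, and most other genes lie closer to 0.

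Dhcr7 came closest to the threshold. Its log2 differences in the WT-labelled pairs were −0.52, −0.59 and −0.35, and those in the KO-labelled pairs were −0.59 and −0.63. With the block the estimates were −0.49 ± 0.12 in WT-labelled cells (adjusted p = 0.054) and −0.61 ± 0.14 in KO-labelled cells (adjusted p = 0.063), and without it the adjusted p was 0.62 and 0.73. Fasn followed in WT-labelled cells (−0.30 ± 0.08, adjusted p = 0.092 with the block). For Hmgcs1 the estimates were −0.14 ± 0.10 and −0.12 ± 0.12 with the block. Cyp51 had differences of 0.33, 0.26 and 0.10 in WT-labelled pairs and 0.05 and 0.18 in KO-labelled pairs (0.23 ± 0.08 in WT-labelled cells, adjusted p = 0.20 with the block).

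Among the other pathway genes a few passed with IFN-β. Rnf139, an endoplasmic reticulum ubiquitin ligase tied to sterol control, had 825, 745 and 935 normalised reads in untreated WT-labelled libraries and 1504, 1620 and 1584 with IFN-β. It had 739 and 710 against 1577 and 1866 in KO-labelled cells, and rose by 0.92 ± 0.13 and 1.24 ± 0.16 (adjusted p = 0.0049 and 0.0031). Stard5, a sterol carrier related to Stard4, rose by 1.19 ± 0.19 and 1.72 ± 0.23. Ch25h did not pass in either genotype (adjusted p = 1.0 and 0.37). Of the further sterol genes and the further fatty acid genes, 0 of 16 and 0 of 22 passed in each genotype.

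The interaction tests whether the IFN-β difference depends on the labelled genotype. For the members it passed in 0 of 32 by limma with or without the block, by edgeR and by DESeq2, with 0 at an unadjusted p under 0.05 by limma. Of all genes 0% passed by limma or edgeR, and 1 gene did by DESeq2. Slfn2 did not pass in limma either, at −3.35 ± 0.50 without the block. The 0 of 32 therefore does not show that the IFN-β differences were alike in both genotypes. The estimates ran from −0.21 for Insig2 to 0.53 for Tm7sf2, whose standard error was 0.98 without the block and 0.36 with it.

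Reads of some members could not be assigned with certainty. Fdft1, Lss, Cyp51, Srebf1 and Acaca overlap a counted gene on the opposite strand (Ctsb, 4930483K19Rik, Akap9, Rai1 and Gm11437, GENCODE M21), and the strand setting of the counting is not given in the sources used here. If strand was not used, reads of such a pair cannot be told apart. Tm7sf2 and Fdps overlap a protein-coding gene on their own strand (Vps51 and Gm43738), and neither symbol was among those counted. Strand does not separate reads of those overlaps, and whether the 2 genes were counted under another name was not tested.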

How the data were processed

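RNA from 10 libraries of immortalised mouse fibroblasts was sequenced from stranded libraries (series' design text). The submitters' processing notes list cutadapt 1.13, STAR 2.5.2a, HTSeq, DESeq2 and mm10, and the annotation and strand setting are not given in the sources used here. The deposited values are a signal, whose steps are those of whole reads scaled by 1 factor in each library. Within 0.001 reads, all of them came out whole after rescaling, and these reads were used for depth and count tests (13565815 to 16329729 per library, which limits precision by counting error). Since the unit is not a raw count, the reported test was limma-trend, run on log2(value + 1) under R 4.3.3 with limma 3.58.1. It fitted the means of the 4 groups over all 10 libraries, and fold changes on this scale understate low genes. Genes passed a low-count filter (edgeR 4.0.16 filterByExpr, minimum count 10 on recovered reads), leaving 12313, and a gene passed at a two-sided Benjamini-Hochberg adjusted p under 0.05 over all of them. Comparisons of library numbers add the number to the group means.

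The count tools edgeR and DESeq2 1.42.0 on the recovered reads, other pseudocounts (0.5 and 5), no filter, TMM scaling, the library number as a block, subsets and leaving out each library were alternatives. The members and the other lists were chosen with earlier results of these data known. All members are described, and of each other list up to 4 passing genes by absolute log2 difference per comparison were eligible to be named, with Slfn2, Ifit1 and Isg15 as checks. Ch25h with IFN-β was added after its values were seen. Markers named are from the fixed cell type lists. The library numbers pair the samples in the data: over the genes tested, same-numbered libraries departed from their group means together (r from 0.48 to 0.87, 13 pairs), more so than differently numbered ones (r at most 0.32, 24 pairs). Departures within a group cancel out, and in the KO-labelled groups of 2 libraries they mirror each other. The r values are therefore tied to one another, and the pairs are not separate observations. Gene positions are from GENCODE M21 and promoter windows from RefSeq (GRCm38.p6). The scripts were tested on simulated data.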

Additional observations from a re-analysis of the deposited data

Results flagged for a closer look

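For 3 members the difference between libraries numbered 2 and 1 itself differed between the labelled genotypes, by a test of that difference (limma, adjusted over all genes tested). The KO-labelled minus WT-labelled values were −0.82 for Acat2, −0.72 for Sc4mol and −0.63 for Sqle on the log2 scale. The libraries numbered 2 were the higher ones in both genotypes for these genes. The calls were lost without most single libraries, as given above, and their cause was not tested.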

How the results depend on the processing

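Counts in brackets are all genes called in the same fit, of 12313 tested. For KO-labelled against WT-labelled untreated cells the count was 2 (767). It was 18 (3275) with the replicate block, 17 (3343) with edgeR and the block, and 12 (2318) with libraries numbered 1 and 2 only and the block. It was 4 (1513) with DESeq2 and 0 (246) with only the groups compared in the fit. With IFN-β the count was 1 (807). It was 14 (3203) with the replicate block, 15 (3285) with edgeR and the block, and 12 (2198) with libraries numbered 1 and 2 only and the block. It was 2 (821) with TMM scaling and 6 (1504) with DESeq2. For number 2 against 1 the 27 (5985) became 14 (1365) with untreated libraries only and 16 (1119) with IFN-β libraries only. Those fits hold fewer libraries. The other settings gave 24 to 27. For number 3 against 2 the 0 (256) became 1 (778) with DESeq2. For the difference between genotypes of number 2 against 1, the 3 (542) became 1 with no filter, where 324 of 16590 genes were called. It became 0 (313) with libraries numbered 1 and 2 only, and was 2 to 4 under the other settings. Leaving out each library in turn, with and without the block, gave 0 to 18 for genotype untreated and 0 to 17 with IFN-β. With the block alone these ran from 10 (11 without WT-labelled untreated library 3) and from 8 (10 where KO-labelled library 1, and 11 where WT-labelled library 2, of that treatment was omitted). The others gave 0 to 1 for IFN-β in KO-labelled cells, 7 to 27 for number 3 against 1, 0 to 3 for number 3 against 2, and 0 to 13 for the difference between genotypes. No called member turned its direction under any alternative run. The settings with libraries numbered 1 and 2 only and edgeR with the block were chosen after seeing the data. The cause of these changes was not tested.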
